A study of Homo sapiens with 9 samples.

Results

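The albumin gene family encodes plasma carrier proteins made by the liver, and its signals were followed in HepG2 cells given recombinant SPARC. The family members were chosen by gene symbol, as ALB (albumin), AFP (alpha-fetoprotein), AFM (afamin) and GC (vitamin D binding protein). A transcript cluster named for the gene was found for 3 of the 4, among 17687 genes in all, and GC was not analysed here. Each of the 3 measured genes had 1 transcript cluster, which is the array's set of probes for a gene: TC0400007830.hg.1 for ALB, TC0400007831.hg.1 for AFP and TC0400007832.hg.1 for AFM. HepG2 is an established human liver cancer line, used here as a model of hepatocytes although it is a tumour line. SPARC is a secreted glycoprotein of the extracellular matrix. The 9 arrays held 3 of untreated cells, 3 of cells given 200 ng/ml SPARC and 3 of cells given 800 ng/ml, all sampled at 24 h. The comparisons ask whether exposure to SPARC altered the transcripts of these carriers. No label says whether replicates were separate cultures, and p-values therefore describe the spread between arrays, which may be technical alone.

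Albumin is the main protein of blood plasma, where it holds water in the vessels and carries fatty acids, bilirubin and many drugs. Alpha-fetoprotein is its counterpart in the fetus. The AFP gene is silenced in the liver after birth and is often active again in liver cancer, which makes the protein a tumour marker. Afamin carries vitamin E and keeps secreted Wnt proteins soluble, and vitamin D binding protein carries vitamin D metabolites and scavenges actin. All are built from related domains held together by cysteine bridges, and their genes lie on the long arm of chromosome 4. In the RefSeq order of protein-coding genes, ALB, AFP and AFM follow each other directly, between ANKRD17 and RASSF6. GC lies apart from them, between SLC4A4 and NPFFR2.

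The 200 bases before the annotated start of each measured gene are shown because the liver promoters of this family are known targets of HNF1, a homeodomain factor of hepatocytes. They come from RefSeq on GRCh38.p14, plus strand, at chr4:73404087-73404286 for ALB, chr4:73436021-73436220 for AFP and chr4:73481545-73481744 for AFM. Capitals mark matches to 3 short motifs, searched on the strand shown and on the opposite strand. They are GTTAAT for HNF1, the CCAAT box by these letters and TATAAA for the TATA box.

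ALB: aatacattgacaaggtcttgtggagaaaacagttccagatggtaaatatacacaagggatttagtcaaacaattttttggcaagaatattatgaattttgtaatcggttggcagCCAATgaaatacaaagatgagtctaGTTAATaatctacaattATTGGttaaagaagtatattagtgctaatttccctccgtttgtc

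AFP: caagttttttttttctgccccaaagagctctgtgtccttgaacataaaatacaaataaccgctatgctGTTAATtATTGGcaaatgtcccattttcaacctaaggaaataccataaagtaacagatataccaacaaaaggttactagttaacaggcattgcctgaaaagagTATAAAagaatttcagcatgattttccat

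AFM: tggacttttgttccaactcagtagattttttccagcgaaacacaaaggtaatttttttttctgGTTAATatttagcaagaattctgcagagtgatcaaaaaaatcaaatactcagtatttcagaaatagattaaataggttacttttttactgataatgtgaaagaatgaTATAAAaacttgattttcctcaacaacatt

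The HNF1 letters occurred in each of the 3 windows, at 61 to 56 bases before the start in ALB, 132 to 127 in AFP and 137 to 132 in AFM. They were present in 4.89% of 35116 promoter windows of the same length. The CCAAT letters occurred at 2 places in ALB and 1 in AFP, against 28.0% of windows with a match. The TATA letters stood 29 to 24 bases before the start in AFP and 30 to 25 in AFM, against 8.59% of windows. In AFP the HNF1 and CCAAT matches lay 1 base apart. A match is a description of the letters and shows no binding.

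The arrays themselves differed in one respect that touches every value below. Untreated replicate 2 correlated with the other arrays at 0.891 to 0.920 across transcript clusters, whereas the other 8 correlated at 0.979 to 0.991. Median signals were 5.41 to 5.55 on the log2 scale in all 9 arrays. Most endothelial, fibroblast and blood cell markers were higher in untreated replicate 2 than the mean of the other untreated arrays. This held in 6 of 7, 5 of 6 and 5 of 7 cases, for 7 of 7 glial markers and for 2 of 5 cholangiocyte markers. Among those lower there were CD68 of macrophages, by a deviation of −0.75, and ACTA2 of stellate cells, with −0.81. The mean signal of 7 of 7 endothelial markers was 4.87 there against 4.02 to 4.29 in the other 8 arrays. For 6 of 7 fibroblast markers it was 5.98 against 5.21 to 5.49, and for 7 of 7 blood and Kupffer cell markers 6.85 against 5.93 to 6.21. The mean of 5 of 6 cholangiocyte markers was 7.14, within the 7.13 to 7.27 of the other arrays. Dim genes as a whole were higher in this array too, since the second to the fourth dimmest of 10 equal bins of genes had median deviations of 0.49, 0.65 and 0.64. The mean of 7 glial markers was 5.90 and 5.96 in 800 ng/ml replicates 2 and 3, against 3.59 to 4.15 in the other 7 arrays. By gene, 6 of 7 had a higher group mean at 800 than at 200 ng/ml. The log2 difference was −0.17 for OLIG2, the lower one, and 0.30 for S100B. Other plasma proteins of hepatocytes, measured for 23 of 24 listed genes, had a mean signal of 9.33 to 9.44 in 8 arrays and of 9.16 in untreated replicate 2. The part of these differences between arrays in the results below was not tested, and the differences of the members, and the counts and medians of the gene lists, are given with and without the arrays concerned. In bulk RNA, fewer cells of a type and less RNA per cell cannot be told apart.

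ALB varied little over the arrays, at the bright end of their range. Its mean over the 8 arrays other than untreated replicate 2 exceeded that of 99.95% of genes. The highest signal of any transcript cluster was 13.21 to 13.43 across the arrays. Whether signals this bright can show larger changes was not tested. Untreated replicates 1, 2 and 3 gave log2 signals of 12.30, 12.14 and 12.25. The 200 ng/ml replicates gave 12.28, 12.36 and 12.32, and the 800 ng/ml replicates 12.46, 12.34 and 12.35. The group means stood in the order of the dose, at 12.23 ± 0.08, 12.32 ± 0.04 and 12.38 ± 0.07 (SD, n = 3 each), but neighbouring groups differed by about their spread. The 3 arrays at 800 ng/ml lay above all 3 untreated arrays, and the 200 ng/ml arrays overlapped with both other groups. Of all genes, 6.08% were likewise higher in all 3 arrays at 800 ng/ml than in all untreated arrays, so ALB was not alone in this. The whole range of ALB over the 9 arrays was 0.32. Its pooled SD within groups was 0.07, against a median of 0.31 over all genes, and 0.356% of genes had a smaller one. Without untreated replicate 2 the values were 0.05 and 0.18, with 2.11% of genes below ALB. In the brightest of 10 equal bins of genes, to which ALB belongs, the medians were 0.26 with all arrays and 0.09 without untreated replicate 2. The median signal of that bin was 9.15, below that of ALB.

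The log2 signals of AFP in untreated replicates 1, 2 and 3 were 9.04, 8.16 and 8.93. Those of the 200 ng/ml replicates were 8.96, 9.19 and 9.14, and those of the 800 ng/ml replicates 9.04, 9.11 and 9.18. A single array, untreated replicate 2, stood below all others, and the remaining 8 lay within 0.25 of each other. The group means were 8.71 ± 0.48, 9.09 ± 0.12 and 9.11 ± 0.07 (SD, n = 3 each) in order of dose, and both treated groups overlapped with untreated cells. With untreated replicate 2 set aside, the mean of the other untreated pair was 8.99, and the pooled SD of AFP within groups was 0.09 instead of 0.29. The corresponding medians over the brightest of 10 equal bins of genes, which holds AFP, were 0.09 and 0.26, so AFP varied about as much as genes of like signal.

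AFM lay at the dim end of the array, where 1.99% of genes had a lower mean over the 8 arrays other than untreated replicate 2. The table gives no detection calls, so whether AFM was above background is unknown, and its values are described as signals only. Untreated replicates 1, 2 and 3 had 2.84, 3.19 and 2.69. Replicates at 200 ng/ml had 3.10, 2.94 and 3.08, and those at 800 ng/ml 2.81, 3.16 and 2.95. The lowest signal of any transcript cluster was 2.19 to 2.41 across the arrays. The means were 2.91 ± 0.26, 3.04 ± 0.09 and 2.97 ± 0.18 (SD, n = 3 each) with full overlap of the groups, so no order of the doses could be read from them. Signals of different probe sets do not rank the amounts of their transcripts, and no level of one member is set against another here.

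**Figure D1:**
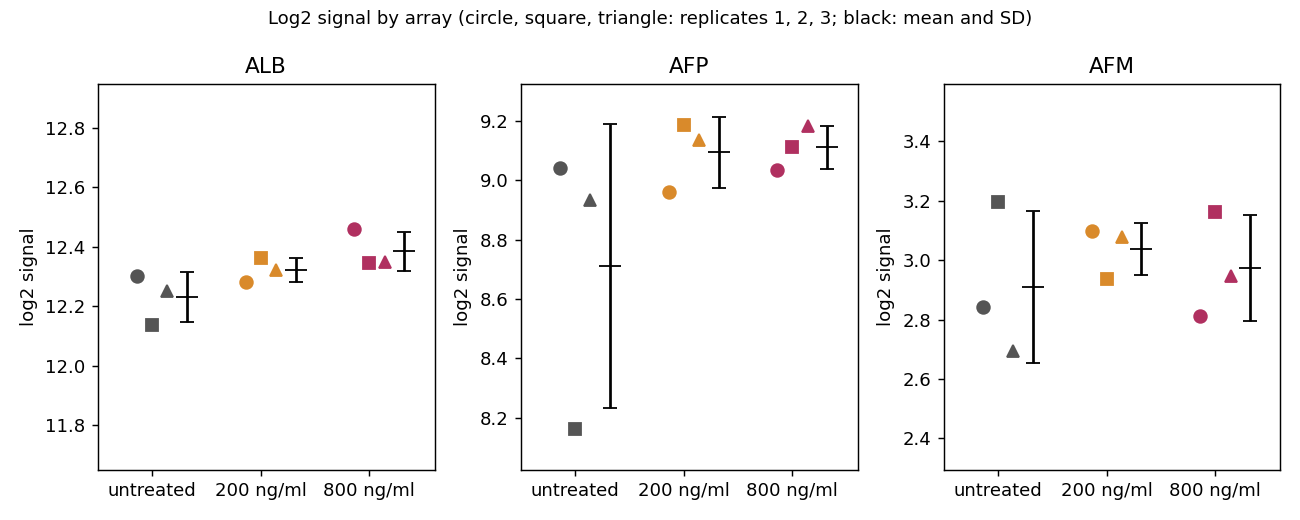
Log2 signal of ALB, AFP and AFM on the y axis for each array of the 3 groups on the x axis, drawn with the same height of scale in the 3 panels; bars give the mean and SD of 3 arrays. Untreated replicate 2 (grey square) was the lowest array for ALB at 12.14 and for AFP at 8.16, and the highest for AFM at 3.19.

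The members were next set beside genes of similar signal in untreated replicate 2. AFP was 0.82 below the mean of the other untreated arrays (a deviation of −0.82) and lay in the brightest of 10 equal bins of genes, where the median deviation was −0.73. AFM was at 0.43, and the dimmest bin, which holds it, had a median of 0.20 with quartiles of −0.06 and 0.56. ALB, also in the brightest bin, was at −0.14. The 17 genes with a mean log2 signal of 12 or more, ALB among them, had a median of −0.17 and a range of −0.36 to −0.02. That limit of 12 was chosen after the values were seen. The opposite deviations of AFP and AFM in this array thus matched the sign of the median deviation at their signal.

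**Figure D2:**
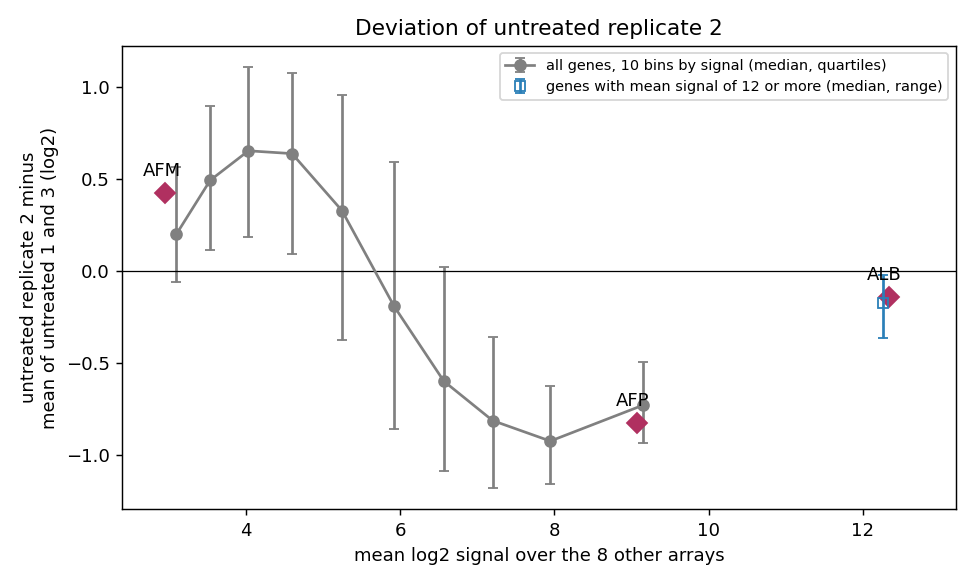
Deviation of untreated replicate 2 from the mean of untreated replicates 1 and 3 (y axis, log2) against the mean log2 signal over the other 8 arrays (x axis). Grey points give the median and quartiles of 10 equal bins of all genes, the open square gives the median and range of 17 genes at 12 or more, and diamonds give AFM at 0.43, AFP at −0.82 and ALB at −0.14.

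No member passed the test in any of the 3 comparisons. The standard error (SE) of limma is drawn by its default prior toward the spread of all genes, and is not that of the gene alone. The pooled SD of ALB within groups was 0.07, against a median of 0.31 over all genes. At 200 ng/ml against untreated cells the log2 difference was 0.09 ± 0.17 (SE) for ALB, with a 95% interval of −0.28 to 0.46. For AFP it was 0.38 ± 0.24 with an interval of −0.14 to 0.90. For AFM it was 0.13 ± 0.20 with an interval of −0.30 to 0.56. All 3 had an adjusted p of 0.966 (limma, Benjamini-Hochberg over all genes), and 0% of 17687 genes were called in this comparison. The unadjusted p was under 0.05 for 315 genes, or 1.78%, with no member among them. In terms of ratios, the intervals spanned 0.826 to 1.37 for ALB, 0.910 to 1.87 for AFP and 0.810 to 1.47 for AFM.

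At 800 ng/ml against untreated cells the log2 difference was 0.15 ± 0.17 (SE) for ALB, with a 95% interval of −0.21 to 0.52 and an adjusted p of 0.684 (limma). AFP had 0.40 ± 0.24 with an interval of −0.12 to 0.92 and an adjusted p of 0.659. AFM had 0.06 ± 0.20 with an interval of −0.37 to 0.50 and an adjusted p of 0.878. Here too 0% of genes were called, and 737 genes, or 4.17%, had an unadjusted p under 0.05, again without a member. All 3 members were numerically above untreated cells at both doses, as were 54.1% of all genes for the lower dose and 54.6% for the higher. Both comparisons use the same untreated arrays, so the like values at the 2 doses are not separate evidence. The AFM difference at 800 ng/ml was below 0 without untreated replicate 3 (−0.044) and without 800 ng/ml replicate 2 (−0.031). With a robust prior that follows a gene's signal, the SEs at 800 ng/ml were 0.08 for ALB, 0.22 for AFP and 0.17 for AFM. The interval of ALB was then −0.02 to 0.33, with an adjusted p of 0.661 (limma), and no member was called. When limma weighted the arrays by their estimated quality, 1971 genes were called at 200 ng/ml, 732 at 800 ng/ml and 6 between the doses, and again no member was among them. In that fit the member nearest to a call was AFM at 200 ng/ml, with a log2 difference of 0.20 and an adjusted p of 0.173.

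The doses were also set against each other, in the same fit of all 9 arrays, so the untreated arrays enter the error. At 800 against 200 ng/ml the log2 difference was 0.06 for ALB with a 95% interval of −0.30 to 0.43. It was 0.02 for AFP with an interval of −0.50 to 0.53, and −0.06 for AFM with an interval of −0.50 to 0.37 (limma, adjusted p = 0.999 for each). In this comparison 0% of genes were called, and 427, or 2.41%, had an unadjusted p under 0.05. The ratio of the doses lay between 0.810 and 1.35 for ALB by this interval, between 0.706 and 1.45 for AFP and between 0.709 and 1.29 for AFM. A fit of only the 6 treated arrays gave the same differences with narrower intervals, −0.18 to 0.30 for ALB, −0.24 to 0.28 for AFP and −0.36 to 0.23 for AFM. Its adjusted p-values were 0.804, 0.961 and 0.837 (limma), and it called 0 genes, with 2481 at an unadjusted p under 0.05.

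**Figure D3:**
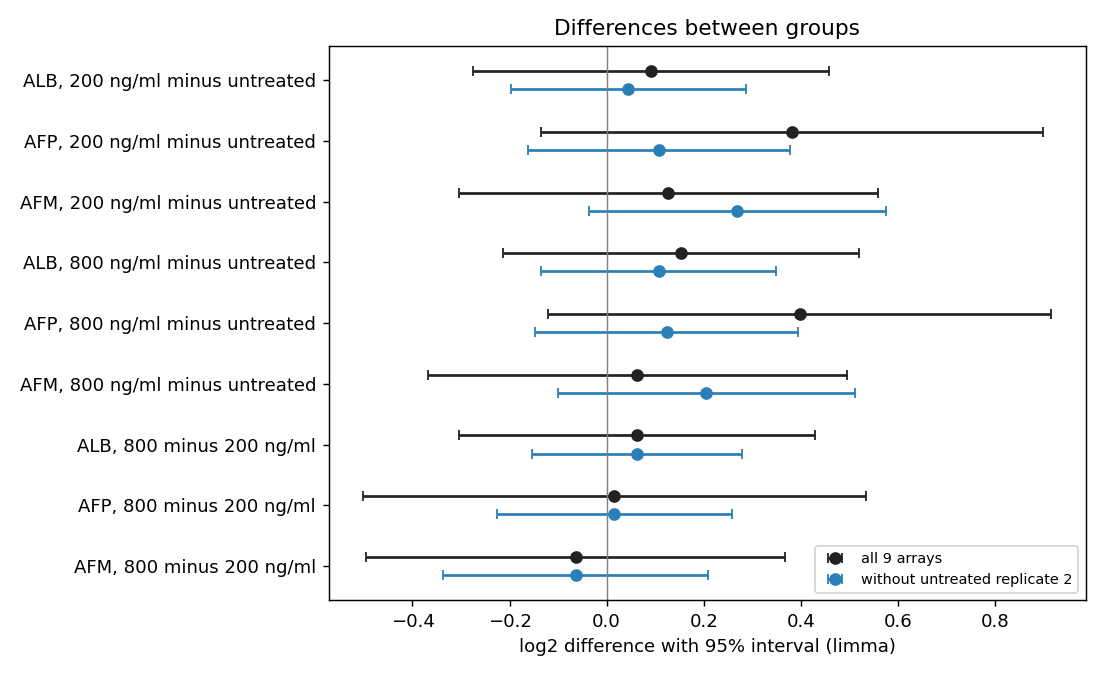
Log2 difference between groups (x axis, limma, with 95% interval) for each member and comparison (y axis), with all 9 arrays in black and without untreated replicate 2 in blue. Every interval holds 0, and the AFP values against untreated cells moved from 0.38 and 0.40 to 0.11 and 0.12.

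Leaving out untreated replicate 2 changed the size of the differences more than it changed the calls. AFP was then at 0.11 at 200 ng/ml, with a 95% interval of −0.16 to 0.38, and at 0.12 at 800 ng/ml, with an interval of −0.15 to 0.39. ALB was at 0.04 and 0.11 in the same order, with upper bounds of 0.29 and 0.35. In ratios, those bounds were 1.22 and 1.27 for ALB, and 1.30 and 1.31 for AFP. AFM moved the other way, to 0.27 and 0.21, with intervals of −0.04 to 0.58 and −0.10 to 0.51. No member was called in that fit. The 3 AFM signals at 200 ng/ml then lay above both untreated signals, as did 13.8% of all genes, and the 3 ALB signals at 800 ng/ml still did, as did 10.5% of all genes. When 800 ng/ml replicates 2 and 3, the arrays with high glial markers, were left out instead, the differences at 800 ng/ml rested on 1 array. They were then 0.23 for ALB, 0.32 for AFP and −0.10 for AFM, with none called. That fit assumes that the lone array varies like those of the other groups.

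The balance between the fetal and the adult gene was followed within each array, as the difference AFP minus ALB. A shift shared by all genes cancels from it, but one that differs with the signal does not. In untreated replicate 2 the median deviation was −0.83 for genes with a mean signal of 8.5 to 9.5, near that of AFP. It was −0.17 for genes at 12 or more, near ALB, and 0.27 for genes at 2.5 to 3.5, near AFM. Untreated replicates 1, 2 and 3 had −3.26, −3.97 and −3.32. The replicates at 200 ng/ml had −3.32, −3.18 and −3.19, and those at 800 ng/ml had −3.43, −3.23 and −3.17. The untreated mean was −3.52 ± 0.40 (SD, n = 3) against −3.23 ± 0.08 at 200 ng/ml and −3.27 ± 0.13 at 800 ng/ml. Untreated replicate 2 was the lowest array, and the groups overlapped. The change of this balance was 0.29 at 200 ng/ml (exact permutation test, two-sided, p = 0.3) and 0.24 at 800 ng/ml (p = 0.5 by the same exact test). Without untreated replicate 2 it was 0.06 and 0.02. Between the doses it was −0.05 (exact permutation p = 0.7).

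The same difference for AFM minus ALB was −9.46, −8.94 and −9.56 in the untreated replicates. The 200 ng/ml replicates had −9.18, −9.43 and −9.24, and the 800 ng/ml replicates −9.65, −9.18 and −9.40. Against untreated cells the change was 0.04 with the lower dose and −0.09 with the higher, and −0.13 between the doses (exact permutation p = 0.9, 0.7 and 0.7). The changes against untreated cells were 0.22 and 0.099 without untreated replicate 2, the second with its sign turned. With 3 arrays against 3 the exact test cannot go below 0.1. The 6 comparisons of this kind had adjusted p-values of 0.84 to 0.9 by the exact permutation test, and a change in such a balance would show unequal change of the pair, not which gene moved.

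**Figure D4:**
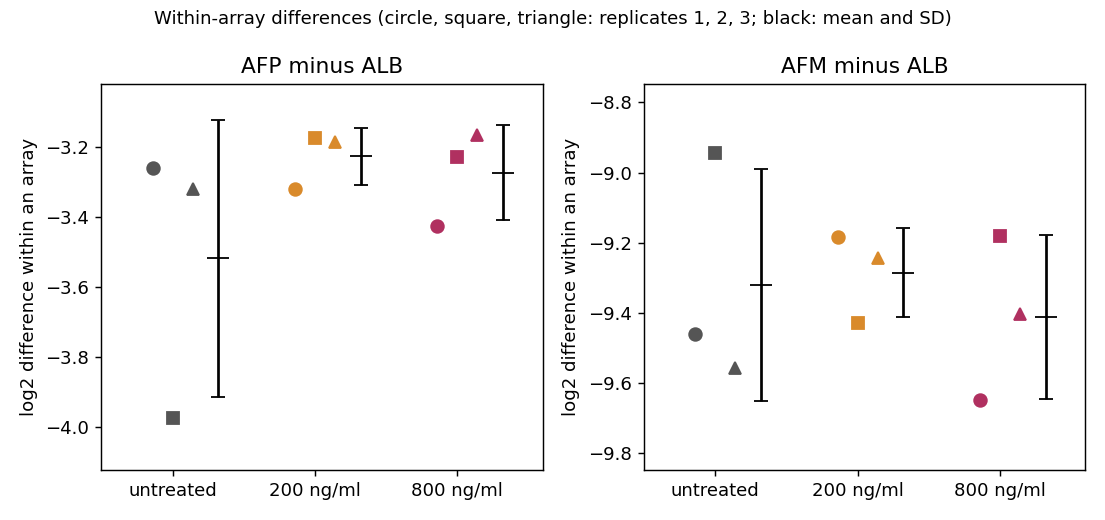
Difference of log2 signals within an array (y axis), AFP minus ALB on the left and AFM minus ALB on the right, for each array of the 3 groups (x axis); bars give the mean and SD of 3 arrays. Untreated replicate 2 (grey square) is the lowest array on the left at −3.97 and the highest on the right at −8.94, and only changes between arrays are read from these values.

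The members were also set against each other over the arrays. As a description over 9 arrays, which share untreated replicate 2 as an extreme point, Pearson's correlation of log2 signal was 0.79 between ALB and AFP, −0.37 between ALB and AFM and −0.36 between AFP and AFM. Over the other 8 arrays the values were 0.43, −0.01 and 0.39. The genes whose signal followed ALB most closely over 9 arrays were NLGN2 (r = 0.967), ANKRD26 (r = 0.959) and PPWD1 (r = 0.953), with 0.924, 0.919 and 0.907 over the 8 arrays. AFP was followed by NPIPA5 (0.993), EPB41L2 (0.992) and ARHGAP5 (0.992), with 0.961, 0.952 and 0.892 over the 8. For AFM they were LOC100652768 (0.944), KDM8 (0.942) and TDRD15 (0.933), with 0.926, 0.935 and 0.955. These genes are the extremes of 17687 over few arrays and are named as a description only. NPIPA5 belongs to a family of near-identical copies, so its signal is uncertain.

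The factors that act on the promoters of the family were measured for 10 of 16 listed genes, and 0 were called at either dose (limma). Against untreated cells 7 of 10 were higher at 200 ng/ml and 8 of 10 at 800 ng/ml, with median log2 differences of 0.21 and 0.14 beside 0.03 and 0.04 over all genes. CEBPA, a leucine zipper factor of mature hepatocytes, had 0.47 ± 0.24 (SE) at 200 ng/ml and 0.19 ± 0.24 at 800 ng/ml. ZHX2, a repressor known to silence Afp in the mouse liver after birth, had 0.38 ± 0.36 and 0.46 ± 0.36. ONECUT1, a cut-homeodomain factor of the liver, had 0.30 at both doses, and FOXA2, a pioneer factor of liver enhancers, had 0.27 and 0.19. NR2F1, an orphan nuclear receptor, had −0.13 and −0.22. The gene DBP, a circadian factor first found at the albumin promoter and unrelated to vitamin D binding protein, had −0.28 and −0.38. Without untreated replicate 2 the medians turned to −0.04 and −0.09, and 3 and 4 of the 10 factors were higher. Over all genes the medians turned too, to −0.016 and −0.006, with 47.2% and 48.2% of genes higher. ZHX2 was then at −0.13 and −0.05 and FOXA2 at −0.14 and −0.22, so both turned. CEBPA was at 0.34 and 0.06, ONECUT1 at 0.04 at both doses, NR2F1 at −0.06 and −0.14 and DBP at −0.02 and −0.13. Without 800 ng/ml replicates 2 and 3, 7 of the 10 were higher at 800 ng/ml, with a median of 0.07. In untreated replicate 2 the mean signal of the 10 factors was 6.54, against 6.89 to 7.06 in the other 8 arrays.

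Receptors and enzymes that handle the proteins of the family and their cargo were measured for 11 of 12 listed genes, with 0 called at either dose (limma). The 11 include SPARC itself, described below, which enters the counts and medians given here. At 200 ng/ml 2 of 11 were higher than in untreated cells, with a median log2 difference of −0.12, and at 800 ng/ml 6 of 11, with a median of 0.04. FCGRT, the heavy chain of the neonatal Fc receptor that rescues albumin from degradation, had 0.03 ± 0.25 (SE) and 0.20 ± 0.25 at the 2 doses. DAB2, an endocytic adaptor, had 0.05 at 200 ng/ml. LRP2, or megalin, and CUBN, or cubilin, which take up filtered albumin and vitamin D binding protein in the kidney, had −0.28 and −0.25 at 200 ng/ml and −0.52 and −0.31 at 800 ng/ml. VDR, the receptor of the hormone form of vitamin D, had −0.10 and −0.40. CYP27B1, which makes that hormone, had −0.55 at 800 ng/ml, and CYP24A1, which breaks it down, had 0.34. With untreated replicate 2 left out, 4 of 11 were higher at each dose, with medians of −0.08 and −0.03. FCGRT was then at −0.26 and −0.09, LRP2 at 0.13 and −0.12, CUBN at −0.08 and −0.14 and VDR at 0.41 and 0.10. DAB2 at 200 ng/ml was at −0.02, and at 800 ng/ml CYP27B1 was at 0.03 and CYP24A1 at −0.02. At 200 ng/ml CYP24A1 was at −0.41 and B2M, also listed, at −0.40, with adjusted p of 0.368 and 0.323 (limma). Their unadjusted p was under 0.05, as it was for 2002 of 17687 genes in that fit. Without 800 ng/ml replicates 2 and 3, 5 of 11 were higher at 800 ng/ml, with a median of −0.03.

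SPARC, whose protein has been described to bind albumin, gave log2 signals of 4.05, 4.27 and 4.15 in the untreated replicates. The 200 ng/ml replicates had 3.70, 3.92 and 3.51, and the 800 ng/ml replicates 4.18, 6.79 and 6.48. The replicates with the high values are those with high glial markers. In the same arrays ALB was at 12.34 and 12.35, within its range of 12.28 to 12.36 at 200 ng/ml. The log2 difference of SPARC was −0.45 ± 0.52 (SE) at 200 ng/ml and 1.66 ± 0.52 at 800 ng/ml (limma, adjusted p = 0.966 and 0.659). It was −0.39 and 1.71 without untreated replicate 2, and without 800 ng/ml replicates 2 and 3 it was 0.02 at 800 ng/ml.

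The genes that flank the family on chromosome 4 are described next. All 7 listed neighbours were measured and 0 were called (limma), with 3 of 7 higher at 200 ng/ml and 6 of 7 at 800 ng/ml, and medians of −0.08 and 0.10. ANKRD17, the neighbour of ALB, had 0.19 ± 0.25 (SE) and 0.35 ± 0.25 at the 2 doses, and −0.12 and 0.04 without untreated replicate 2. RASSF6, the neighbour of AFM, had 0.12 ± 0.24 and 0.07 ± 0.24. The chemokine gene CXCL8, next along, had 0.01 and 0.04. On the side of GC, NPFFR2 had −0.08 and 0.19, ADAMTS3 had −0.08 and −0.24 and COX18 had −0.14 and 0.10. SLC4A4, a sodium bicarbonate cotransporter also found in astrocytes, had −0.40 ± 0.45 and 0.90 ± 0.45. Its signals at 800 ng/ml were 3.71, 5.80 and 5.06, high in the replicates with high glial markers, against 3.55 to 4.43 in untreated cells. Without those 2 replicates SLC4A4 was at −0.25 at 800 ng/ml, and 5 of 7 neighbours were higher, with a median of 0.12. When untreated replicate 2 was left out instead, 1 of 7 was higher at 200 ng/ml and 4 of 7 at 800 ng/ml, with medians of −0.12 and 0.04. RASSF6 was then at −0.02 and −0.06, COX18 at −0.54 and −0.29, CXCL8 at 0.24 and 0.28, ADAMTS3 at −0.20 and −0.36, NPFFR2 at −0.04 and 0.23 and SLC4A4 at −0.43 and 0.87.

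Other plasma proteins of hepatocytes gave a comparison for the members. Of 23 measured, 16 exceeded the untreated mean with the lower dose and 17 with the higher, with median log2 differences of 0.06 and 0.10, and 0 were called (limma). VTN, or vitronectin, had 0.57 ± 0.27 (SE) at 200 ng/ml and 0.39 ± 0.27 at 800 ng/ml. FETUB, or fetuin-B, had 0.37 at 200 ng/ml, and SERPINC1, or antithrombin, had 0.44 at 800 ng/ml. TF, or transferrin, had −0.27 at 200 ng/ml and ITIH1, an inter-alpha-trypsin inhibitor chain, −0.23 at 800 ng/ml. HPX, or hemopexin, had −0.79 ± 0.50 and −0.84 ± 0.50. Without untreated replicate 2 the medians were −0.04 and 0.001, with 9 and 12 of 23 higher, beside −0.016 and −0.006 over all genes. HPX was then at −0.05 and −0.10 and VTN at 0.25 and 0.08. In the same fit FETUB at 200 ng/ml was at 0.19 and TF at −0.37, and SERPINC1 and ITIH1 at 800 ng/ml were at −0.08 and 0.07, both with the sign turned. Without 800 ng/ml replicates 2 and 3, 14 of 23 were higher at 800 ng/ml, with a median of 0.04. ALB, at 0.04 and 0.11 without untreated replicate 2, and AFP, at 0.11 and 0.12, were above the plasma protein medians of that fit. Whether the members differed from the other plasma proteins was not tested.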

How the data were processed

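Biotin-labelled total RNA was measured on 1-colour arrays, per the labels' protocols. The authors deposited log2 values, 1 for each transcript cluster on each array, with R 3.0 as the only tool in the submitters' processing notes. For normalization, background correction and filters, no method is given in the sources here. No label states the log2 scale, which the range of the values implies. Of 21448 clusters, 17709 had 1 gene symbol, 0 had several and 3739 had none, and 0 symbols changed when matched through Entrez identifiers to RefSeq (GRCh38.p14). The cluster with the highest mean was kept for each of 17687 genes. A single limma fit (version 3.58.1, R 4.3.3, lmFit and eBayes with the default prior) covered the 3 groups, and a gene was called where its p, adjusted by Benjamini-Hochberg across all genes, was under 0.05. The procedure was tested on simulated data. The number of arrays limits the precision. Within-array differences were compared with exact permutation tests, planned for GC too, which is not reported here.

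The members and gene lists were chosen with earlier results of these data known. Named were the members, listed genes that passed or had the largest rise or fall, a fixed set of partners and neighbours, and for each member the 3 genes with the highest correlation over 9 arrays. Genes without a value are not analysed here. No pair of arrays held the same values (0 pairs). Alternatives were quantile normalization, median centring, leaving out the dimmest 25% of genes, the mean of all clusters, a robust prior with a trend, fits restricted to the compared arrays, the replicate block, array weights and leaving out each array. Chosen after seeing the data were fits without untreated replicate 2 after quantile normalization and without 800 ng/ml replicates 2 and 3, the latter for the gene lists too.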

Additional observations from a re-analysis of the deposited data

How the results depend on the processing

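No member was called under any alternative run, and the differences of ALB and AFP from untreated cells stayed above 0 in all of them. For ALB they ranged over 0.045 to 0.13 at 200 ng/ml and 0.11 to 0.19 at 800 ng/ml when each array was left out in turn, and for AFP over 0.11 to 0.55 and 0.12 to 0.56, with the lowest values without untreated replicate 2. Between the doses ALB ranged over 0.024 to 0.083, AFP over −0.051 to 0.062 and AFM over −0.16 to 0.017. AFM ranged over 0.020 to 0.27 at 200 ng/ml and over −0.044 to 0.21 at 800 ng/ml against untreated cells, turning below 0 without untreated replicate 3 and, at −0.031, without 800 ng/ml replicate 2. Quantile normalization lowered ALB to 0.013 at 200 ng/ml and AFP to 0.22 and 0.18 at the 2 doses, and gave −0.0409 for AFP between them, or −0.0407 with untreated replicate 2 also left out, and array weights gave −0.0023. Without 800 ng/ml replicates 2 and 3, AFP between the doses was −0.058 and AFM at 800 ng/ml was −0.098. Leaving out the dimmest 25% of genes removed AFM. The cause of these turns was not tested.

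The count of called genes, 0 in each comparison, was 1971 at 200 ng/ml, 732 at 800 ng/ml and 6 between the doses with array weights, which gave untreated replicate 2 a weight of 0.0399 and untreated replicate 1 a weight of 10.7. With each array left out it was 0 at 200 ng/ml, 0 to 12 at 800 ng/ml and 0 to 15 between the doses, the highest without 800 ng/ml replicate 1. The AFP minus ALB change ranged over 0.063 to 0.42, 0.017 to 0.37 and −0.0997 to 0.030 in the order 200 ng/ml, 800 ng/ml and between the doses. The AFM minus ALB change ranged over −0.082 to 0.22, −0.21 to 0.099 and −0.24 to −0.0069.

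The replicate block left the differences as they were (0.09 for ALB, 0.38 for AFP and 0.13 for AFM at 200 ng/ml), with 0 genes called. Same-numbered arrays deviated from their group means at correlations of −0.24 to 0.10. For pairs with an untreated array this check cannot decide on a pairing, since untreated replicate 2 weighs on the deviations of its whole group. Between the doses, where no untreated array enters, the correlations were 0.007, −0.045 and 0.035 for replicates 1, 2 and 3. Of these, only replicate 1 at 800 ng/ml deviated most like the 200 ng/ml array of its own number. No label states a pairing.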
